A study of Mus musculus with 12 samples.

Results

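Transcripts of 10 genes of neutrophil granules and of the neutrophil surface were followed in newborn mouse lung: Mpo, Elane, Ltf, Camp, Ngp, Lcn2, S100a8, S100a9, Retnlg and Csf3r. They were chosen by name, and every probe of the array annotated to 1 of these symbols was taken, which gave 18 probes of 45281 and 10 genes of 19057 after probes of a gene were merged. The lungs came from 6 mice labelled as cavin-1-deficient (KO), 1 of them in doubt as described below, and 6 wild-type littermates (WT), with 1 array for each mouse. Cavin-1 (PTRF) is a coat protein needed to form caveolae, the small invaginations of the cell membrane. The samples are labelled C57/bl6 and newborn, aged 0 to 6 h by the labels and taken within 12 h of birth by the study's methods, and no animal was treated. By the study's methods, the Cavin1 allele was targeted with a vector that carries a lacZ/neo cassette. Whole lung was used, so a change in the number of neutrophils and a change in RNA per neutrophil cannot be told apart. Lungs are named by genotype and animal number.

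Neutrophils fill their granules in sequence as they mature in blood-forming tissue. Promyelocytes make the proteins of the primary (azurophil) granules, among them myeloperoxidase (Mpo) and neutrophil elastase (Elane). Myelocytes and metamyelocytes then switch to the proteins of the secondary and tertiary granules, lactoferrin (Ltf), cathelicidin (Camp), neutrophilic granule protein (Ngp) and lipocalin-2 (Lcn2). S100a8 and S100a9, the calprotectin subunits of the cytosol, Retnlg, a resistin-like secreted protein, and Csf3r, the receptor for G-CSF, are transcribed up to the mature blood neutrophil, in which transcripts of primary granule proteins are largely gone. Around birth the mouse liver is still a site of blood formation. Ltf and Lcn2 are also made by epithelia, including those of the airway. C/EBP factors and PU.1 (Spi1) are the best known regulators of these genes.

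The start sites of the genes at the centre of the results are shown from RefSeq on the build GRCm38.p6, from 250 bases before the start to 50 bases after it. They are the primary granule genes Mpo and Elane, the secondary granule genes Ltf and Ngp, which lie with Camp on chromosome 9, and S100a8, the late gene with the smallest difference between genotypes. Each is printed 5′ to 3′ along the gene's own strand. Capitals mark matches on either strand to TTNNGNAA, a C/EBP-type motif, or GAGGAA, a PU.1-type motif.
Mpo, chr11:87793534-87793833, + strand: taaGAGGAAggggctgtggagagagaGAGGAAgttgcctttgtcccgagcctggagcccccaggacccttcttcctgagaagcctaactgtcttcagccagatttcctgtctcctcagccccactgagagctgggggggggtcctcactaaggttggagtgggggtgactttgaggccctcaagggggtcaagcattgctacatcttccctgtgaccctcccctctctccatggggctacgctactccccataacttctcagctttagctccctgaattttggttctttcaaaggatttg
Elane, chr10:79886062-79886361, + strand: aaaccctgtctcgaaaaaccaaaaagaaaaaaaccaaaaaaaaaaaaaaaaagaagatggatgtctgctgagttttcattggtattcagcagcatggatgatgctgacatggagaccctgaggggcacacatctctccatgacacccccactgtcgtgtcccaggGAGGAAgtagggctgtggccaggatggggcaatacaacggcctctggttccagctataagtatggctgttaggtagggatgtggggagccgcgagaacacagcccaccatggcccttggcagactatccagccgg
Ltf, chr9:111019042-111019341, + strand: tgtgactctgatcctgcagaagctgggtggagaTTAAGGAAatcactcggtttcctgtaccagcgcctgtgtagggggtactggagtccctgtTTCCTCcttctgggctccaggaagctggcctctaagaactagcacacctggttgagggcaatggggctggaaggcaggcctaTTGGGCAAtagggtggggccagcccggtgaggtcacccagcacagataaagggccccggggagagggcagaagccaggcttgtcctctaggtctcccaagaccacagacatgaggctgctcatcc
Ngp, chr9:110419558-110419857, + strand: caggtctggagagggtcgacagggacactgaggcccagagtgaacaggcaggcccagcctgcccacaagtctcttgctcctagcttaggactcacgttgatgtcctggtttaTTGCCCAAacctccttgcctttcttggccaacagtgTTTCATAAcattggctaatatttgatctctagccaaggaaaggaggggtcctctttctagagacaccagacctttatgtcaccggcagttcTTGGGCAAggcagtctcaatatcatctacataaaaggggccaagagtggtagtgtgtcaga
S100a8, chr3:90668821-90669120, + strand: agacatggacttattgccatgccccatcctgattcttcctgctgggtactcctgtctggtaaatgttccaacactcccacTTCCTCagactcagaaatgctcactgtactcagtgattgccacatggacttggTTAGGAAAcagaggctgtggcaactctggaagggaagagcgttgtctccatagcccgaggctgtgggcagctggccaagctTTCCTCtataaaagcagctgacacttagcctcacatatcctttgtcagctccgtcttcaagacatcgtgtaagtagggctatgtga

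All 10 genes were found in the promoter table. TTNNGNAA occurred in 6 of the 10 windows and GAGGAA in 6, and 9 held either motif. Over all 32851 windows of the same length, 40.7% held TTNNGNAA and 28.3% held GAGGAA, so such matches are common and are a description of the sequence only. Both Mpo matches (first bases at −247 and −224 from the start) and the Elane match (at −85) were GAGGAA, with no TTNNGNAA in either window, whereas Ngp held 3 matches to TTNNGNAA and none to GAGGAA. No match overlapped another, and the Camp window held neither motif. In the RefSeq order of coding genes, Elane is next to Prtn3, the gene of another primary granule protease, and S100a8 is next to S100a9.

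Between 45.3% and 49.1% of probes were detected on each array (detection p under 0.05). Of the 18 member probes, 9 were detected in all 12 lungs, 13 in 6 or more and 5 in 1 or none. In the library labelled KO 157, whose title and description carry different animal numbers, the bright Cavin1 probe ILMN_2498471 gave 11.66 on the log2 scale, inside the WT range of 11.57 to 11.79, while the other 5 KO lungs lay between 3.60 and 5.37. The second Cavin1 probe, ILMN_1243992, gave 8.47 in KO 157, inside the WT range of 8.22 to 8.92. The other 5 KO lungs lay between 1.67 and 2.89. By both probes the library KO 157 thus lacked the loss of Cavin1 RNA seen in the other KO lungs. It was kept under its label, so KO values include it unless stated, and results are also given without it. WT 142 and KO 192 stood apart for several of the 10 genes, as shown beside the values.

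No member gene passed the threshold between KO and WT lungs, with 0 of 10 merged genes and 0 of 18 probes at an adjusted p under 0.05 in limma (over all features 0.199% of genes and 0.148% of probes passed, 0.0945% and 0.0663% as higher in KO). No test compared the stages at which the genes are made, and the size of a dim probe's difference depends on the background correction. Primary granule genes and 3 of the 4 secondary granule genes had higher mean signals in KO lungs, by 0.77 to 1.43 on the log2 scale for the brightest probe of each, while Lcn2 and the genes of mature neutrophils differed by −0.27 to 0.38. Of the 10 merged genes, 8 had a higher mean in KO, where 48.4% of all genes did, and 5 had an unadjusted p under 0.05 with a higher mean in KO (Camp, Ngp, Elane, S100a9 and Ltf), where 6.22% of all genes did. By single probes, 14 of 18 had a higher mean in KO, where 49.8% of all probes did, and 7 of 18 had an unadjusted p under 0.05 with a higher mean in KO, where 6.33% of all probes did. Camp and Ngp were measured by 1 probe each, and so were 5 of the other genes.

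**Figure D1:**
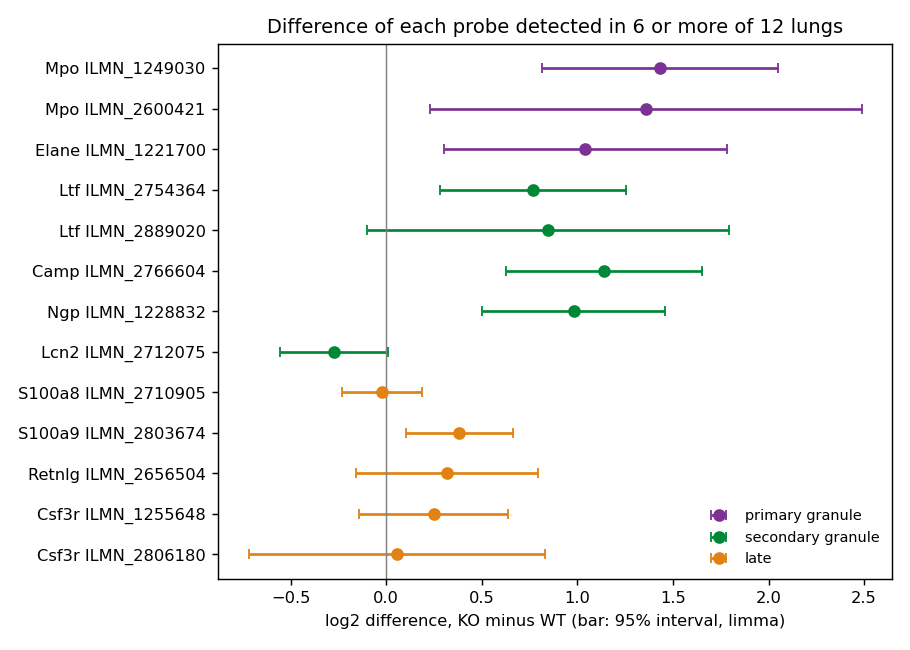
Log2 difference, KO minus WT, of the 13 member probes detected in 6 or more of 12 lungs, with 95% intervals from limma and colours for the stage of granule formation. Both Mpo probes, Elane, Camp, Ngp and the brighter Ltf probe have intervals above 0, as does S100a9, whereas the interval of S100a8 spans −0.23 to 0.19.

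Myeloperoxidase, the chlorinating enzyme of the primary granule, was read by 4 probes. The brightest, ILMN_1249030, was detected in all 12 lungs. Its log2 signal was 6.57, 7.14, 8.37, 6.60, 6.54 and 7.47 in KO 157, 186, 192, 235, 237 and 238. In WT 142, 177, 179, 182, 187 and 188 it was 6.54, 5.11, 5.84, 5.89, 5.57 and 5.14. Every KO lung was above every WT lung, although KO 237 and WT 142 were level at the precision printed. These KO lungs include KO 157 (6.57), whose Cavin1 RNA was in the WT range. KO 192 was the highest lung and WT 142 the highest of the WT lungs. This was the only member probe whose groups did not overlap (0.629% of all probes did not overlap with KO higher). The means were 7.11 ± 0.72 in KO and 5.68 ± 0.54 in WT (SD, n = 6 each), a difference of 1.43 (SE 0.30, 95% interval 0.82 to 2.05, 2.70-fold) with an adjusted p of 0.0584. Its unnormalized bead signals were 174 to 349 in KO and 115 to 232 in WT, where array medians were 97 to 122. The size of the difference depended on the processing and lay between 0.68 and 1.72 over the alternative settings. Probe ILMN_2600421, detected in 6 KO and 4 WT lungs, differed by 1.36 (SE 0.54, adjusted p = 0.277), and again KO 192 was highest at 7.45. The other probes, ILMN_2719256 and ILMN_2925094, were detected in 0 and 1 of 12 lungs and carried no measurable level. The median of the 4 probes takes in these background values, and the merged Mpo difference was 0.77 (SE 0.42, adjusted p = 0.444).

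Neutrophil elastase, a serine protease of the same granules, was close to the limit of the array. Its probe ILMN_1221700 was detected in 5 KO lungs and in WT 142 alone among the WT lungs. The log2 signal was 4.48, 4.27, 5.60, 4.22, 3.10 and 4.31 in the KO lungs and 3.83, 3.28, 3.30, 2.71, 3.57 and 3.05 in the WT lungs, in the order given for Mpo. The groups overlapped through KO 237, the KO lung in which it was not detected, and KO 192 was again the highest. The means were 4.33 ± 0.80 in KO and 3.29 ± 0.39 in WT (SD, n = 6 each), which differed by 1.04 (SE 0.35, adjusted p = 0.197 over all probes). Since 5 of the 6 WT values were not above background, the size of this difference is not firmly measured.

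**Figure D2:**
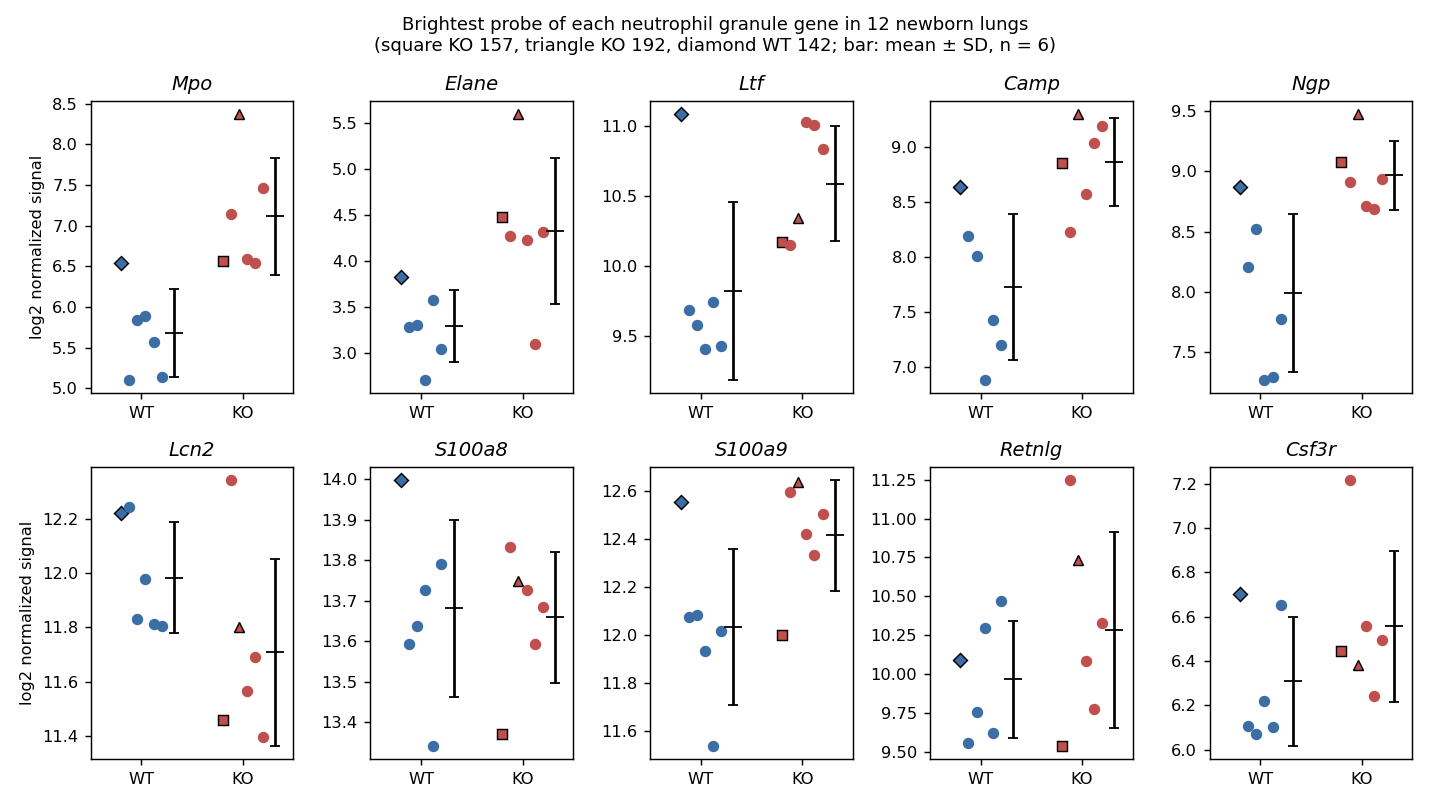
Log2 normalized signal of the brightest probe of each of the 10 genes in every lung, with WT in blue and KO in red and the mean ± SD (n = 6) beside each group. For Mpo, Camp and Ngp every KO lung sits above every WT lung other than WT 142 (diamond), and KO 192 (triangle) is the highest lung for Mpo, Elane, Camp, Ngp and S100a9.

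Among the secondary granule genes, Camp and Ngp had the smallest p-values of the 10 merged genes. Camp encodes the precursor of the antimicrobial peptide CRAMP. Its probe ILMN_2766604 gave 8.85, 8.23, 9.30, 8.57, 9.04 and 9.19 in the KO lungs and 8.63, 8.19, 8.01, 6.88, 7.43 and 7.20 in the WT lungs. The groups overlapped only because WT 142 was above KO 186 and KO 235. The means were 8.86 ± 0.40 in KO and 7.72 ± 0.66 in WT (SD, n = 6 each), a difference of 1.14 (SE 0.25, 2.20-fold) with an adjusted p of 0.0635 over all probes and 0.0836 over all genes.

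Ngp, a cystatin-related protein of secondary granules, showed a similar order. Probe ILMN_1228832 gave 9.08, 8.91, 9.48, 8.71, 8.69 and 8.93 in the KO lungs and 8.87, 8.20, 8.52, 7.27, 7.29 and 7.77 in the WT lungs. The WT lungs spread over 1.60 and the KO lungs over 0.79, and WT 142 lay within the KO range. The difference was 0.98 (SE 0.23, 1.97-fold), with an adjusted p of 0.0780 over all probes and 0.0911 over all genes.

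Lactoferrin, an iron-binding protein, lay at separate levels within each genotype. The bright probe ILMN_2754364 gave 10.17, 10.15, 10.34, 11.03, 11.01 and 10.84 in the KO lungs and 11.08, 9.69, 9.58, 9.41, 9.75 and 9.43 in the WT lungs. WT 142 was the highest of all 12 lungs and the other 5 WT lungs were below every KO lung. Within KO, the lungs 235, 237 and 238 were above 157, 186 and 192. The difference was 0.77 (SE 0.23, 1.70-fold, adjusted p = 0.152 over all probes), and that of the dim probe ILMN_2889020, detected in 5 KO and 2 WT lungs, was 0.84 (SE 0.45, adjusted p = 0.436).

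Lcn2, a siderophore-binding protein, had a lower mean in KO. Its probe ILMN_2712075 ranged from 11.40 to 12.34 in KO and from 11.81 to 12.24 in WT, with KO 186 the highest lung. The difference of −0.27 (SE 0.13, adjusted p = 0.390) had an interval of −0.55 to 0.01.

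The late genes, which mature neutrophils transcribe, had smaller differences. S100a8 (ILMN_2710905) had unnormalized bead signals of 9654 to 16872 in KO and 10576 to 18941 in WT. After normalization it gave 13.37, 13.83, 13.75, 13.73, 13.59 and 13.68 in the KO lungs and 13.998, 13.59, 13.64, 13.73, 13.34 and 13.79 in the WT lungs. The ranges lay over each other, and the difference was −0.02 (SE 0.10, 95% interval −0.23 to 0.19, adjusted p = 0.953) and 0.045 with median scaling.

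S100a9 (ILMN_2803674), the partner of S100a8, ranged from 12.001 to 12.64 in KO and from 11.54 to 12.56 in WT. All KO lungs except KO 157 were above all WT lungs except WT 142. The difference was 0.38 (SE 0.13, 1.30-fold, adjusted p = 0.209 over all probes). Retnlg (ILMN_2656504) ranged from 9.54 to 11.25 in KO and from 9.55 to 10.47 in WT, with the KO lungs 157 and 186 at opposite ends, and differed by 0.32 (SE 0.23, adjusted p = 0.584). Csf3r was read by 5 probes, of which ILMN_1255648 was detected in all lungs and differed by 0.25 (SE 0.19, adjusted p = 0.608). Probe ILMN_2806180, detected in 11 of 12 lungs, differed by 0.06 (SE 0.37), and the other 3 Csf3r probes were detected in at most 1 lung.

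**Figure D3:**
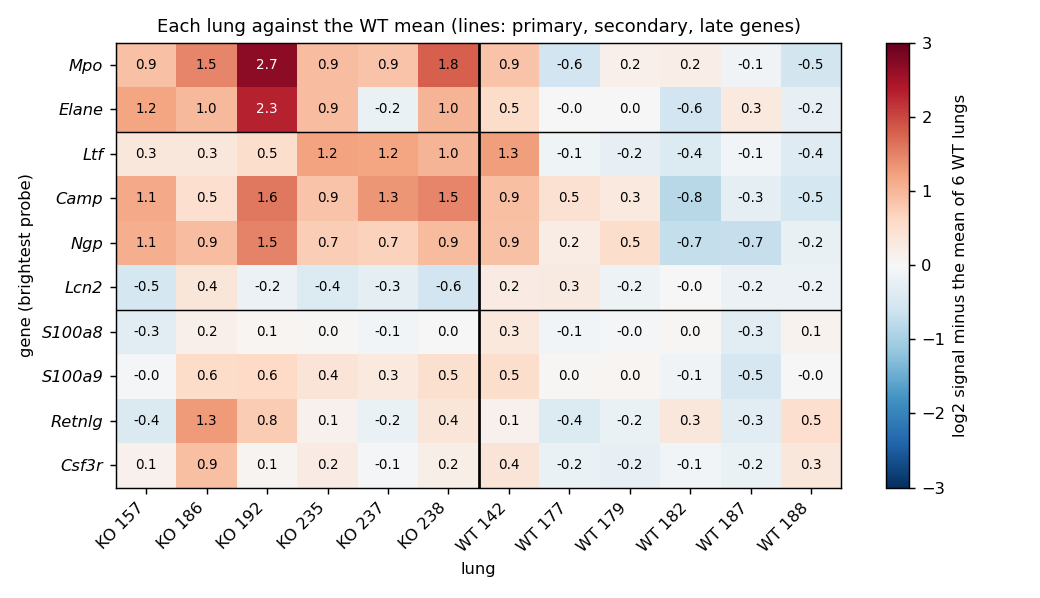
Log2 signal of the brightest probe of each gene in each lung minus the mean of the 6 WT lungs, with KO lungs on the left and lines between primary granule, secondary granule and late genes. Mpo, Ltf, Camp and Ngp are above 0 in all KO lungs and in WT 142, Lcn2 is above 0 in 1 of 6 KO lungs, and S100a8 stays within 0.34 of the WT mean in every lung.

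A few libraries decided where the values fell against the threshold. Without WT 142, the probes of Camp (1.32, SE 0.22, adjusted p = 0.0332), Ngp (1.16, SE 0.20, adjusted p = 0.0359), Mpo ILMN_1249030 (1.61, SE 0.29, adjusted p = 0.0375) and Ltf ILMN_2754364 (1.02, SE 0.16, adjusted p = 0.0317) passed, 4 of 18 where 0.0905% of all probes passed as higher. Of the merged genes only Camp passed (adjusted p = 0.0454, with 0.0525% of all genes). In this setting these 4 probes did not overlap between the groups (0.934% of all probes), nor did the merged genes Camp and Ngp (0.887% of all genes, against 0 members and 0.54% of all genes with WT 142). Leaving WT 142 out fixed this outcome, since it alone made Camp, Ngp and Ltf ILMN_2754364 overlap. WT 142 was also the highest WT lung for Mpo, Ltf, Camp and Ngp by these probes, so leaving it out had to raise their differences. The overlap shares and the adjusted p-values without WT 142 are thus a description only. With any single lung other than WT 142 or KO 192 left out, no member probe passed. WT 142 had the highest summed signals of erythroid (42195 in arbitrary units, against 29729 to 40655 in the other lungs) and platelet markers (4274, against 1622 to 3233), and their part in the member values was not tested.

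Without KO 192, the probes of Mpo (1.18, SE 0.25, adjusted p = 0.0291) and Camp (1.05, SE 0.25, adjusted p = 0.0437) passed, with 0.587% of all probes, and no merged member did, with 0.509% of all genes. Without the library labelled KO 157 no member probe or gene passed (0.0243% of all probes and 0.0472% of all genes passed as higher), the Mpo difference was 1.54 (SE 0.30, adjusted p = 0.0536), that of Camp 1.14 (adjusted p = 0.103), that of Ngp 0.96 (adjusted p = 0.124), and 9 of 10 merged genes had a higher mean in KO. With KO 157 and WT 142 both left out, an alternative chosen after the data were seen, the 4 probes named and S100a9 (0.57, adjusted p = 0.0326) passed, 5 of 18 where 0.053% of all probes did, and S100a9 passed among merged genes (adjusted p = 0.0482, with 0.063% of all genes).

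KO 192, the lung with the highest Mpo and Elane, also had the highest liver signals. The summed signal of the 4 hepatocyte markers was 5732 in KO 192, against 162 to 1276 in the other KO lungs and 228 to 824 in the WT lungs. Apoa1, Ttr and Afp, each a plasma protein gene of the newborn liver, were at 11.09, 11.21 and 10.20 on the log2 scale, and Alb was at 4.15 and detected in KO 192 alone. The 3 measured markers of dividing cells also had their highest sum there (1341, against 349 to 939 in the other lungs). Their part in the member values was not tested, and without KO 192 the plain difference of group means was 1.18 for Mpo and 0.79 for Elane. The library labelled KO 157 had Cavin1 RNA in the WT range. It was at 6.57 for Mpo, 4.48 for Elane, 8.85 for Camp and 9.08 for Ngp. Without both KO 157 and KO 192, a choice made after the values were seen, the differences of group means were 1.25 for Mpo, 0.69 for Elane, 1.03 for Camp and 0.83 for Ngp.

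The lungs with the highest Ltf were those with the highest squamous epithelium markers. The summed signal of Krt4, Krt5, Krt13, Sprr1a and Lor was 2038, 2170 and 1840 in KO 235, 237 and 238 and 1796 in WT 142, against 501 to 1176 in the other KO lungs and 161 to 1058 in the other WT lungs. All 5 of these markers had a higher mean in KO (median difference 1.12) and none passed the test. With KO 235, 237 and 238 left out, the remaining KO lungs 157, 186 and 192 (10.15 to 10.34) were above the 5 WT lungs other than WT 142 (9.41 to 9.75). Of these KO lungs, KO 157 (1147) and KO 186 (1176) also had squamous sums above those 5 WT lungs, and KO 192 (501) lay within their range. The part of these markers in the Ltf values was not tested.

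**Figure D4:**
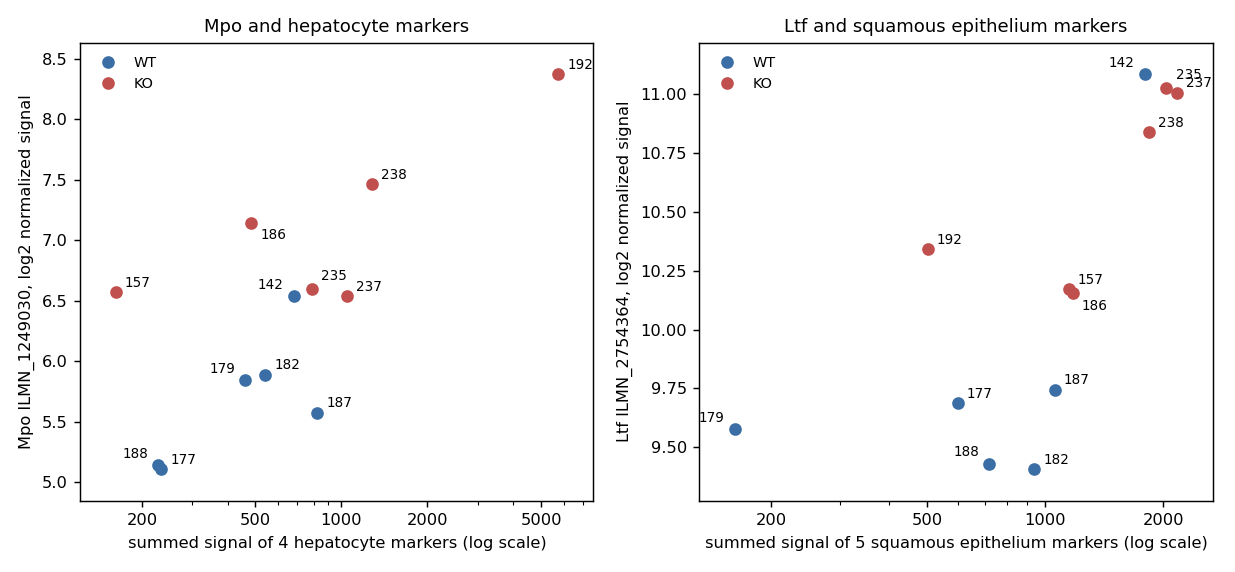
Log2 normalized signal of Mpo (left) and Ltf (right) in each lung against the summed signal of 4 hepatocyte markers and of 5 squamous epithelium markers on a log scale, with animal numbers beside the points. KO 192 is the farthest right for hepatocyte markers at 5732, and KO 235, 237, 238 and WT 142 are the farthest right for squamous markers at 1796 to 2170.

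Other genes of the same granules were read from fixed lists. Of 3 measured primary granule genes, the protease Prtn3 had a higher mean in KO (0.84, SE 0.29, adjusted p = 0.214) and Ms4a3 was not detected in any lung. Ctsg, the protease cathepsin G, was detected in 3 KO lungs and no WT lung, with mean signals of 3.65 and 2.42 (adjusted p = 0.185), so its WT level is only bounded and no fold is given. The Prtn3 signal was 4.06 to 5.72 in KO and 3.77 to 4.88 in WT, with KO 192 the highest lung, as for Elane, its neighbour. The list's median difference was 0.84, against −0.01 for all genes.

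None of the 10 other secondary and tertiary granule genes passed, 7 had a higher mean in KO, and the median was 0.12. Chil3, a chitinase-like protein that alveolar macrophages make as well, differed by 1.03 as the median of 3 probes (SE 0.28, adjusted p = 0.120) and by 0.63 by its brightest probe, and the gelatinase Mmp9 differed by 0.28 (SE 0.17, adjusted p = 0.526). Pglyrp1 differed by 0.21 when merged and by 0.48 by its brightest probe (SE 0.13, adjusted p = 0.110 over all probes in limma). Hp differed by 0.16 when merged and by −0.08 by its brightest probe. Of 14 measured genes of mature neutrophils none passed, 9 had a higher mean in KO, and the median was 0.14. The stefin Stfa1 differed by 0.25 (SE 0.10, adjusted p = 0.311), the protease Asprv1 by 0.54 (SE 0.25, adjusted p = 0.356), the decoy receptor Il1r2 by 0.55 (SE 0.27, adjusted p = 0.385) and the cytokine Il1b by −0.49 (SE 0.31, adjusted p = 0.529). The 5 phagocyte oxidase subunits had a median of −0.10 and none passed.

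With all 12 lungs, no regulator or attractant of neutrophils passed. Of 8 transcription factors of granulopoiesis, 7 had a higher merged mean in KO with a median of 0.25, where 48.4% of all genes had a higher mean. The smallest p was that of Cebpa, which starts the lineage (0.44, SE 0.16, adjusted p = 0.239). By the brightest probe of each gene, Cebpd (−0.07), Runx1 (−0.20), Myb (−0.13) and Spi1 (−0.18) had a lower mean in KO. The other factors, Cebpa, Cebpb, Cebpe and Gfi1, had a higher one. Cebpe, which is needed for secondary granules, differed by 0.44 (SE 0.30, adjusted p = 0.560). Of 11 growth factors, chemoattractants and adhesion genes, 5 had a higher mean in KO with a median of −0.01. The chemokine Cxcl1 differed by 0.88 (SE 0.33, adjusted p = 0.248), and without WT 142, the WT lung in which it was highest, it passed at 1.22 (SE 0.22, adjusted p = 0.0454). In that setting 0.0525% of all genes passed as higher in KO. Of 30 alternatives this was the only 1 in which Cxcl1 was called. Cxcl12, which holds neutrophils in marrow, differed by −0.69 as the median of 5 probes (SE 0.32, adjusted p = 0.351). Its brightest probe, ILMN_2658908, differed by −0.54 (SE 0.14, adjusted p = 0.0937 over all probes). That probe ranged from 10.99 to 12.05 in KO and from 12.09 to 12.50 in WT.

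No pan-leukocyte, erythroid, macrophage or monocyte marker passed. Of 6 pan-leukocyte markers 3 had a higher mean in KO (median 0.06), with sums of 7160 to 11543 in KO and 7117 to 10006 in WT. The erythroid markers had a median of 0.03, 6 of 7 macrophage markers had a higher mean in KO (median 0.21), and 2 of 3 monocyte markers did (median 0.01). Of 6 eosinophil and mast cell markers, Prg2, the major basic protein of eosinophil granules, passed over all genes at 1.37 (SE 0.26, adjusted p = 0.0491) but not over all probes (adjusted p = 0.0584), with means of 5.45 ± 0.41 in KO and 4.09 ± 0.54 in WT. It was called in 2 of the 12 fits with a lung left out (without KO 157 and without KO 192) and in 7 of the 18 other alternatives, with a higher mean in KO in all of them. Epx, the peroxidase that defines eosinophils, was not detected in any of the 12 lungs. The lung markers, Sftpc among them, had sums of 72727 to 85346 in KO and 70703 to 86338 in WT, and none passed with all lungs kept. Scgb1a1 differed by −0.41 (SE 0.10, adjusted p = 0.0836). Pecam1 differed by 0.44 (SE 0.11, adjusted p = 0.0873) and Cldn5 by 0.47 (SE 0.12, adjusted p = 0.0940). These adjusted p-values in limma were near those of Camp (0.0836) and Ngp (0.0911) over all genes.

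Across the 12 lungs, with the mean of each genotype subtracted, genes of the same stage varied together to different degrees. S100a8 and S100a9 had a Pearson correlation of 0.92, Retnlg and Csf3r 0.73, Camp and Ngp 0.81, and Mpo and Elane 0.68. The rank correlations (Spearman) of these pairs were 0.71, 0.70, 0.78 and 0.44 in the same order. The 6 pairs of late genes had a median of 0.69, the 6 pairs of secondary granule genes 0.32, and the 32 pairs from different stages 0.35. Camp and Retnlg had the lowest value, −0.35. The points share arrays and normalization, so these values describe these 12 lungs only. Lcn2 correlated with the late genes (0.50 to 0.57) more than with Ngp (0.27), Camp (0.01) or Ltf (0.03). By rank (Spearman) the values were 0.17 to 0.48 with the late genes, 0.20 with Ngp, 0.15 with Camp and −0.04 with Ltf. The mean standardized deviation of the 10 genes was highest in WT 142 (1.45) and lowest in WT 187 (−0.76) and the library labelled KO 157 (−0.72), and the Mpo and Ltf correlation of 0.23 became −0.30 without WT 142.

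**Figure D5:**
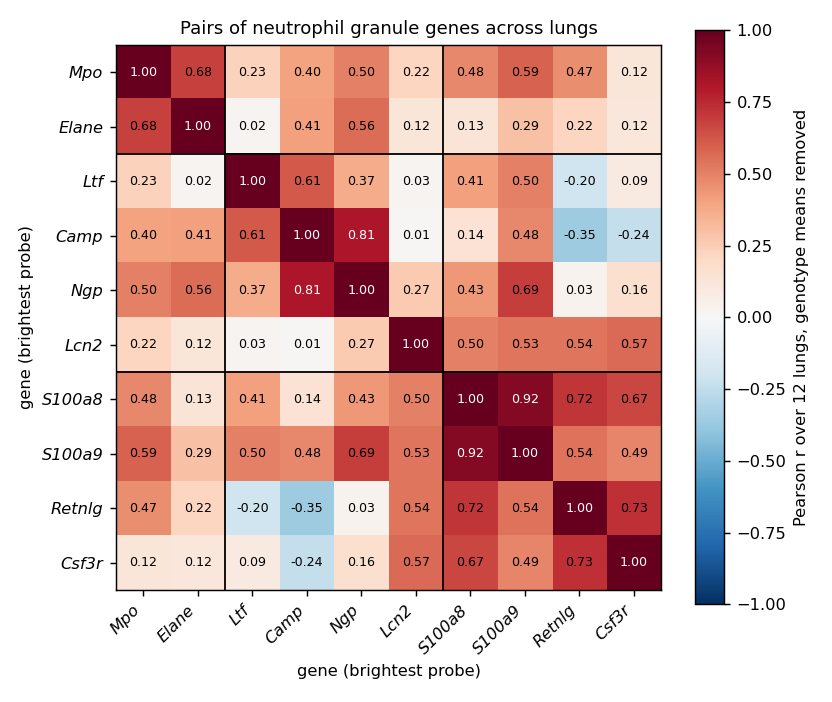
Pearson correlation of each pair of genes over 12 lungs with genotype means removed, ordered by stage with lines between stages. The block of S100a8, S100a9, Retnlg and Csf3r at the lower right is positive throughout (0.49 to 0.92), and the row of Camp runs from 0.81 with Ngp to −0.35 with Retnlg.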

How the data were processed

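Total RNA of 12 newborn lungs was labelled with biotin and hybridised to Illumina MouseWG-6 v2.0 arrays. The authors deposited intensity values read as the mean signal of a probe's beads (GenomeStudio), neither background-subtracted nor normalized, with a detection p-value per probe, also as deposited by the authors. A further table of processed values, floored at 16, served as an alternative. Signals were corrected by the normal-exponential model of RMA, quantile-normalized and put on a log2 scale (R 4.3.3, limma 3.58.1), and the median was taken over a gene's probes, with 34885 probes assigned to 1 gene. KO and WT were compared in limma, with prior variances following the mean signal, and the Benjamini-Hochberg adjustment ran over all 19057 genes or all 45281 probes, with a threshold of 0.05 and no filter on detection. Each replicate is a separate mouse, and precision is limited by how many arrays there are. The BeadChip of each array is not given in the sources used here, so no batch term could be fitted. The model was tested on 1 simulated set of 19057 genes that varied independently, with changes planted in genes of above-median signal. It called 34.3% of 67 genes changed by 0.5, 68.7% of 67 changed by 1 and 97.0% of 66 changed by 2 on the log2 scale, with 12 false calls among 145.

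The 10 genes, the other lists and the tests were chosen with earlier results of these data known. The text names all 10 genes with their probes, up to 4 genes with the smallest p of each other list, the 8 genes most like the members' mean, and Cavin1. Genes outside this rule (Lor, Sftpc, Cebpd, Runx1, Myb, Spi1, Pglyrp1 and Hp) were named after their values were seen. Summed signals add the linear normalized values of a list's genes. Listed genes with no matching probe, 14 in all, were not analysed here. Alternatives were other background corrections and scalings, the processed values, filters on detection at 0.05 or 0.01 in 6 or more arrays, the brightest or each probe, limma with no trend, the methods' t-test, SAM (100 permutations, fudge constant at the median SD), array weights, a Y-linked covariate (Eif2s3y), subsets of KO lungs and each array left out with normalization repeated.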

Additional observations from a re-analysis of the deposited data

Results flagged for a closer look

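Chance marks about 1 in 20 groups, and 5 of 42 groups of 6 lungs had a lung far from the others, by Dixon's gap test at its 95% critical value. WT 142 lay above the other WT lungs for Ltf, with a log2 signal of 11.08 by probe ILMN_2754364 (others 9.41 to 9.75) and of 8.29 by the merged gene (others 6.39 to 7.01). KO 192 lay below the other KO lungs for the dim Ltf probe ILMN_2889020, at 2.76 (others 4.64 to 5.43), while by the bright Ltf probe it was within the KO range. KO 186 lay above the other KO lungs for Csf3r probe ILMN_1255648, at 7.22 (others 6.24 to 6.56). KO 238 lay above the others for Csf3r probe ILMN_2746501, at 2.53 (others 1.98 to 2.13), a probe that was detected in no lung.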

How the results depend on the processing

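No paired analysis was possible because the labels do not say which KO lung goes with which WT lung, although the study describes pairs of mice and littermate controls. The 38 genes that passed became 6 under median scaling, 20 from the authors' own processed values, 1 with limma without a trend, 11 with SAM, 0 with the methods' t-test (2461 at an unadjusted p under 0.05), 93 with array weights, 11 with the Y-linked covariate, 166 with KO 235, 237 and 238 alone and 88 with probes filtered before merging, and 0 to 223 when each lung was left out, 223 without KO 192. Of the 10 merged members, 1 passed with array weights (Camp, adjusted p = 0.0491) and 1 with KO 157 and WT 142 left out (S100a9), and 0 to 1 passed when each lung was left out. Of the 18 probes, 1 passed with detection filters at 0.05 and 0.01 and with the covariate (Mpo ILMN_1249030, adjusted p = 0.0487, 0.0447 and 0.0467, where 0.805%, 1.36% and 0.115% of all probes tested passed), 3 with array weights (Mpo, Camp and Ngp, with 0.51% of all probes), 2 with KO 235, 237 and 238 alone (Camp and Ltf, with 1.09%), 5 with KO 157 and WT 142 left out and 0 to 4 when each lung was left out. In all settings run, Mpo, Elane, Ltf, Camp, Ngp, S100a9 and Retnlg kept a higher mean in KO and Lcn2 a lower one, with merged differences of 0.85 to 1.33 for Camp and 0.20 to 1.54 for Mpo. S100a8 turned to 0.045 with median scaling, to 0.036 with the brightest probe and KO 157 left out, to 0.011 by gene and 0.0090 by probe with array weights, to 0.10 with KO 157 and WT 142 left out, and lay between −0.090 and 0.042 when each lung was left out. Csf3r ILMN_2806180 turned to −0.050 without KO 235, 237 and 238 and lay between −0.19 and 0.27 when each lung was left out. Chil3, Krt5, Cldn5, Pecam1 and Scgb1a1 passed without KO 192 and with KO 235, 237 and 238 alone. Cldn5 and Scgb1a1 also passed with array weights. The causes were not tested. Signal over background limits Elane, Ctsg and the dim probes of Mpo, Ltf and Csf3r. Without background correction the difference of the dim Prg2 was 0.31, against 1.37 with it.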

Other observations

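The genes whose signal followed the mean of the 10 genes most closely over 12 lungs, with genotype means subtracted, were Wdr89 (Pearson r = 0.92), Stfa1 (0.90), Esco2 (0.88), Cstdc5 (0.87), Nfe2 (0.86), Nono (0.85), Prss12 (0.85) and Cstdc4 (0.84), out of 11589 genes detected in 6 or more lungs, of which 12 were above 0.8. Detection was judged by a gene's most often detected probe, while the correlation used the median of its probes. The merged Wdr89 signal was close to the limit of the array, with means of 3.16 in KO and 3.69 in WT. Stfa1, Cstdc5 and Cstdc4 are stefin-type cystatins, a family that in the mouse is abundant in neutrophils, and Nfe2 is a transcription factor of the erythroid and megakaryocyte lineages. Stfa1 differed between genotypes by 0.25 (SE 0.10), Cstdc5 by 0.46 (SE 0.15, adjusted p = 0.180) and Cstdc4 by 0.21 (SE 0.12), and none of the 8 passed. KO 238 had a summed signal of 1394 for the 4 measured lymphocyte markers, against 205 to 468 in the other 11 lungs.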
